A study of Mus musculus with 8 samples.

Results

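Mechanosensitive channels of the vessel wall were examined in mouse thoracic aortic endothelium with and without an induced deletion of Mef2c, which encodes a transcription factor of the MADS-box class. The set was fixed by name and holds 8 genes: Piezo1, Piezo2, Trpv4, Trpc1, Pkd1, Pkd2, Kcnj2 and P2rx4. A probe set with that single symbol was found for 7 of the 8, among 30063 genes with such a probe set on the array. No probe set used here carries the symbol Pkd2, so that gene was not analysed here. Of the 7, 6 lay above the level filter and were among the 16232 genes tested, and Piezo2 lay below it.

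All 8 mice were female, carried the recombinase transgene Cdh5-CreERT2, which acts in endothelial cells once tamoxifen is given, and had both Mef2c alleles floxed (Mef2c f/f). At 10 weeks of age, 4 mice received tamoxifen on 5 days (EKO) and 4 littermates received the oil and ethanol vehicle alone (control). Tissue was collected on day 14 counted from the first injection, and each array held the RNA that TRIzol flushed from the lumen of 1 aorta. Control mice carried the same transgene and floxed alleles but received no tamoxifen, so the drug and the deletion cannot be told apart. The comparison asks which transcripts of the flushed RNA differ after tamoxifen is given to induce the deletion of Mef2c. The values are log2 expression, and a difference is EKO minus control on that scale.

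Endothelial cells sense blood flow in part through ion channels. Stretch or shear stress opens cation channels such as PIEZO1 and TRPV4, and the calcium that enters activates nitric oxide synthase and opens calcium-dependent potassium channels, which relaxes the vessel. Other members act beside them: KCNJ2 (Kir2.1) is a flow-activated inward rectifier that hyperpolarizes the cell, P2RX4 opens to the ATP that endothelium releases under flow, and the polycystins PKD1 and PKD2 form a complex linked to flow sensing at the primary cilium. PIEZO2 is best known from sensory neurons and TRPC1 as a subunit of cation channels tied to calcium stores.

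The endothelial label was borne out by most of its markers. Of 15 endothelial marker genes 14 were tested, and their mean lay between 12.4 and 12.6 on all 8 arrays, with Pecam1 at 18.1 to 18.2 and Cdh5 at 16.2 to 16.5. Kdr was the exception, at 6.42 to 7.22, below the medians of the array's own negative control probe sets (7.34 to 7.45). The smooth muscle myosin gene Myh11 also lay below those medians (6.75 to 6.995), whereas Acta2 ranged from 9.68 to 12.4 and the brown fat gene Ucp1 from 11.14 to 16.73. The fibroblast gene Dcn read 11.5 to 13.5, the adipocyte gene Adipoq 7.63 to 10.1 and the leukocyte gene Ptprc 7.12 to 9.40. The flushed RNA thus held transcripts of other cell types as well. Mef2c itself differed by -0.03 (limma adjusted p = 0.946), and the labels do not say whether its probe set reads the floxed exons. No array was identical to another, and pairs of arrays had r of 0.981 to 0.993 across tested genes, which are not independent replicates. The number of arrays limits the precision.

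Promoter sequence is shown for 4 members because the deleted factor is a DNA-binding protein. These are the pairs with the highest Pearson r over the arrays, Piezo1 with Trpv4 and Trpc1 with Pkd1, a choice that was not tested and that ranks would not give, since Trpc1 and P2rx4 had a higher rho (0.643) than Piezo1 and Trpv4 (0.548). Each line gives the 250 bases before the annotated start, 5′ to 3′ on the strand of the gene, from RefSeq on GRCm38.p6. Capitals mark GC boxes (GGGCGG on either strand) and the TATA box (TATAAA). The stretches are chr8:122551330-122551579 (Piezo1, minus strand), chr5:114658422-114658671 (Trpv4, minus strand), chr9:95750349-95750598 (Trpc1, minus strand) and chr17:24549700-24549949 (Pkd1, plus strand).
Piezo1: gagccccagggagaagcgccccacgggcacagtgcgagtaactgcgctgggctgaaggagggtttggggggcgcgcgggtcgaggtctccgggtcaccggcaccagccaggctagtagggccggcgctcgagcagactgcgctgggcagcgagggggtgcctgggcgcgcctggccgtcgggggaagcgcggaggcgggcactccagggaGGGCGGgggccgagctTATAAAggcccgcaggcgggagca
Trpv4: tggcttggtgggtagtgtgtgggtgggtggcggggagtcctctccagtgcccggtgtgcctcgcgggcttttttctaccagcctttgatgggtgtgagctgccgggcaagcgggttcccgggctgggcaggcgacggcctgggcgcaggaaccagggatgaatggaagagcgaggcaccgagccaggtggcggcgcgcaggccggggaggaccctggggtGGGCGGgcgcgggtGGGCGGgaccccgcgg
Trpc1: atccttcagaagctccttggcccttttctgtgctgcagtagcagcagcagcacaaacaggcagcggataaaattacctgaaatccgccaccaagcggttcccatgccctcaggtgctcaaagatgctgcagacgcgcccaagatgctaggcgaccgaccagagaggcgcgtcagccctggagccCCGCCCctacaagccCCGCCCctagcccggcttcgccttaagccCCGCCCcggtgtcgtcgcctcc
Pkd1: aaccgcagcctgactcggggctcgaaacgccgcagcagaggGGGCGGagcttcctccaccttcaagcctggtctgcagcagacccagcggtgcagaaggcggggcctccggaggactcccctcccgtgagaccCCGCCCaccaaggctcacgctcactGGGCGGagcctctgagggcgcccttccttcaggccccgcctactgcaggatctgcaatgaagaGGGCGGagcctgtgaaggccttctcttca

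None of these 4 stretches, nor those of Pkd2, Kcnj2 and P2rx4, held the MEF2 consensus on either strand, a match that 2.92% of the 32851 promoters in the table have in the same window. That says only that these letters are not in these 250 bases. No promoter of Piezo2 is shown. Piezo1 had a TATA box that begins 24 bases before its start, and 12.4% of all promoters hold 1 on either strand. Pkd1 had 4 GC boxes, Trpc1 had 3, all written on the reverse strand, Trpv4 and Kcnj2 had 2 each and Piezo1 had 1, while P2rx4 and Pkd2 had 0. Of all promoters 32.7% had at least 1 GC box and 4.09% at least 4. The members' stretches were 52.8% to 74.0% G or C, against a median of 52.4% over all promoters. These matches are descriptions of the sequence, and no binding was measured.

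In 0 of the 6 tested channel genes did the groups differ past the threshold. All 6 averaged lower in EKO aortas, by 0.05 to 0.25 on the log2 scale, with a median difference of -0.19, and in each the EKO and control arrays overlapped. Over all 16232 tested genes limma called 0 genes at an adjusted p under 0.05 (percent called 0), 55.1% were lower in EKO aortas and the median difference was -0.02. Before adjustment 1449 genes (8.93%) had a limma p under 0.05 with 1469 for the test without moderation, and neither called any gene after adjustment. None of the 6 channel genes was among these 1449, and none among the 6.08% of genes whose groups did not overlap. The members were chosen by name with earlier results of these data known, so their shared sign is a description.

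**Figure D1:**
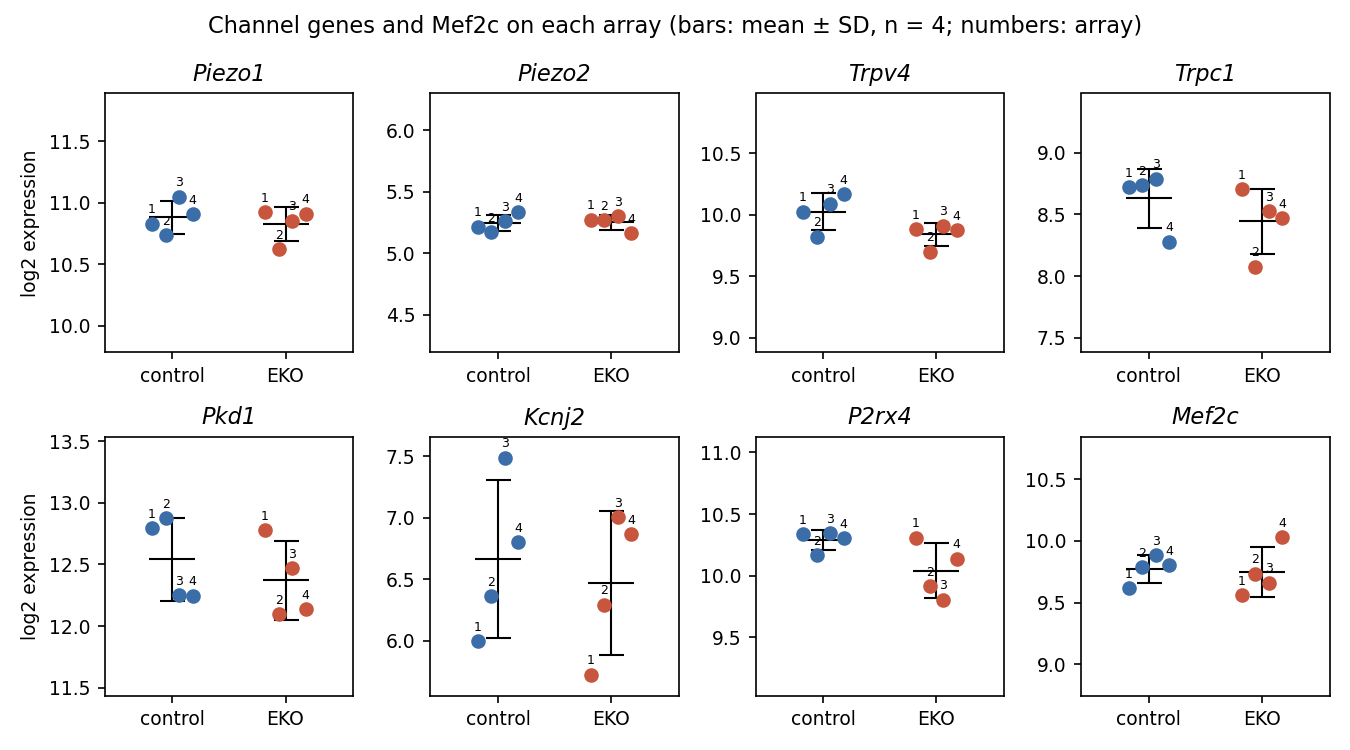
Log2 expression of 7 channel genes and Mef2c on each array. Points are single arrays (numbered), horizontal bars the group mean with SD (n = 4 each), and every panel spans the same height in log2 units. Control and EKO points overlap in every panel, and the Kcnj2 points are spread most widely (5.72 to 7.49).

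Piezo1 encodes the main shear- and stretch-gated cation channel of endothelium. Its level was 10.83, 10.74, 11.05 and 10.91 on control arrays 1 to 4, and 10.92, 10.62, 10.86 and 10.91 on EKO arrays 1 to 4. Apart from EKO array 2, the lowest of all 8, every EKO value lay within the control range. The means were 10.88 ± 0.13 and 10.83 ± 0.14 (n = 4 each, SD), which differ by -0.05 (95% confidence interval from -0.27 to 0.17, SE 0.10, limma adjusted p = 0.867). As a ratio of EKO to control this is 0.96, with an interval of 0.83 to 1.12. The sign was not stable: without EKO array 2 the difference was 0.01, and without control array 3 it was 0.0025.

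Piezo2, its relative, read between 5.17 and 5.33 on control arrays and between 5.16 and 5.30 on EKO arrays. All 8 values lay under the level filter of 6.14 and under the medians of the negative control probe sets, so Piezo2 was not tested with limma. Its group means were 5.25 and 5.25, a difference of 0.0049 (two-sided exact permutation p = 0.943). Piezo2 was therefore not above background on these arrays, and no change in it was detectable.

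Trpv4 encodes a calcium-permeable channel of the vanilloid TRP family that links shear stress to vasodilation. On control arrays 1 to 4 it read 10.03, 9.82, 10.09 and 10.17, and on EKO arrays 1 to 4 it read 9.88, 9.70, 9.91 and 9.87. All 4 EKO arrays lay below the control mean, and control array 2 lay below 3 of them. The control mean was 10.03 ± 0.15 and the EKO mean 9.84 ± 0.10 (n = 4 each, SD), which differ by -0.18 (95% confidence interval from -0.39 to 0.02, SE 0.09, limma adjusted p = 0.587, two-sided exact permutation p = 0.114). The ratio was 0.88, with an interval of 0.76 to 1.02. Its unadjusted p was 0.0762, and 12.9% of tested genes had a smaller one. With 1 array left out the unadjusted limma p was smallest, 0.0162, without control array 2 (difference -0.25, adjusted p 0.630). It was largest, 0.193, without control array 4 (difference -0.14, adjusted p 0.783).

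Trpc1, a gene of the canonical TRP family, read 8.72, 8.74, 8.79 and 8.28 on control arrays 1 to 4 and 8.71, 8.07, 8.53 and 8.47 on EKO arrays 1 to 4. Control array 4 lay below 3 of the 4 EKO arrays, and EKO array 2 was lowest of all. The means were 8.63 ± 0.24 in control and 8.44 ± 0.27 in EKO aortas (n = 4 each, SD). The difference was -0.19 (95% confidence interval from -0.55 to 0.17, SE 0.16, limma adjusted p = 0.708), which shrank to -0.06 without EKO array 2 and grew to -0.31 without control array 4.

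Pkd1, the gene of the large membrane protein polycystin-1, split into high and low arrays within the control group. It read 12.79 and 12.87 on control arrays 1 and 2 but 12.25 and 12.25 on control arrays 3 and 4, and on EKO arrays 1 to 4 it read 12.78, 12.10, 12.47 and 12.14. The groups thus overlapped over most of their range. The means were 12.54 ± 0.34 and 12.37 ± 0.32 (n = 4 each, SD), which differ by -0.17 (95% confidence interval from -0.63 to 0.29, SE 0.20, limma adjusted p = 0.794). This difference moved from -0.06 without control array 2 to -0.31 without EKO array 1.

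Kcnj2, the gene of the Kir2.1 potassium channel, varied most of the 6 between arrays of a group. It read 5.996, 6.36, 7.49 and 6.80 on control arrays 1 to 4 and 5.72, 6.29, 7.004 and 6.87 on EKO arrays 1 to 4, a span of 1.76 over the 8 arrays. Its within-group SD of 0.61 was larger than that of 97.4% of tested genes. Only control array 3 read above the negative control median of its array, so the level of Kcnj2 was near background elsewhere. The means were 6.66 ± 0.64 and 6.47 ± 0.59 (n = 4 each, SD). The difference was -0.19 (95% confidence interval from -1.03 to 0.65, SE 0.37, limma adjusted p = 0.877), an interval that spans ratios of 0.49 to 1.57. Its sign turned without control array 3 (0.09) and without EKO array 1 (0.06), and it was -0.41 without control array 1.

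P2rx4, which encodes an ATP-gated cation channel, had the largest difference of the 6. Its level was 10.34, 10.17, 10.35 and 10.31 on control arrays 1 to 4, and 10.31, 9.91, 9.81 and 10.14 on EKO arrays 1 to 4. Below the lowest control array lay 3 of the 4 EKO arrays, and EKO array 1 lay among the controls. The control mean was 10.29 ± 0.08 and the EKO mean 10.04 ± 0.23 (n = 4 each, SD), which differ by -0.25 (95% confidence interval from -0.51 to 0.01, SE 0.11, limma adjusted p = 0.569, two-sided exact permutation p = 0.0857). The ratio was 0.84, with an interval of 0.70 to 1.01, and 10.6% of tested genes had a smaller p. Of the fits with 1 array left out, the smallest unadjusted limma p was 0.0103, without EKO array 1 (difference -0.34, adjusted p 0.294). The largest was 0.158, without EKO array 3 (difference -0.17, adjusted p 0.716).

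**Figure D2:**
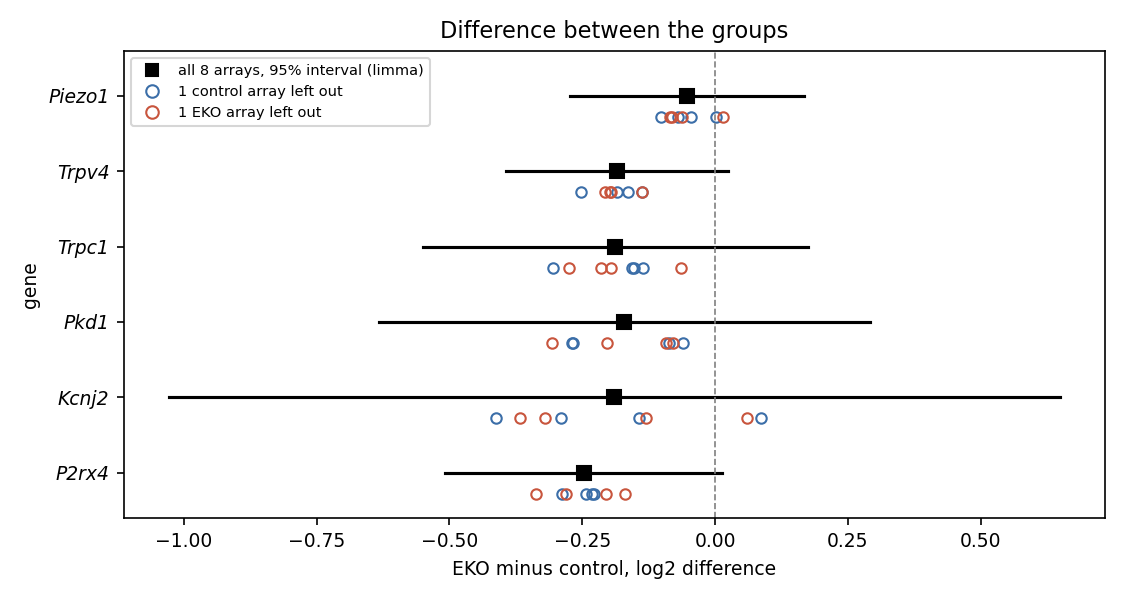
Log2 difference between EKO and control aortas for the 6 tested channel genes. Black squares and lines give the estimate and 95% confidence interval over 8 arrays (limma), and open circles the estimate with a single array left out. Every interval includes 0, and circles lie on both sides of 0 for Piezo1 and Kcnj2.

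Genes related to these channels did not pass the threshold either. Of 135 related genes in 8 lists, 71 were tested, of which 32 were higher and 39 lower in EKO aortas, with a median difference of -0.02, the same as over all tested genes, and 0 passed in either direction. At an unadjusted p under 0.05 there were 4 (Kcnk4, Nedd4l, Stom and Sdc4), and 2 had groups that did not overlap (Cav1 and Itgb1, the latter chosen after its values were seen). For comparison, 8.93% and 6.08% of all tested genes met these 2 conditions.

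**Figure D3:**
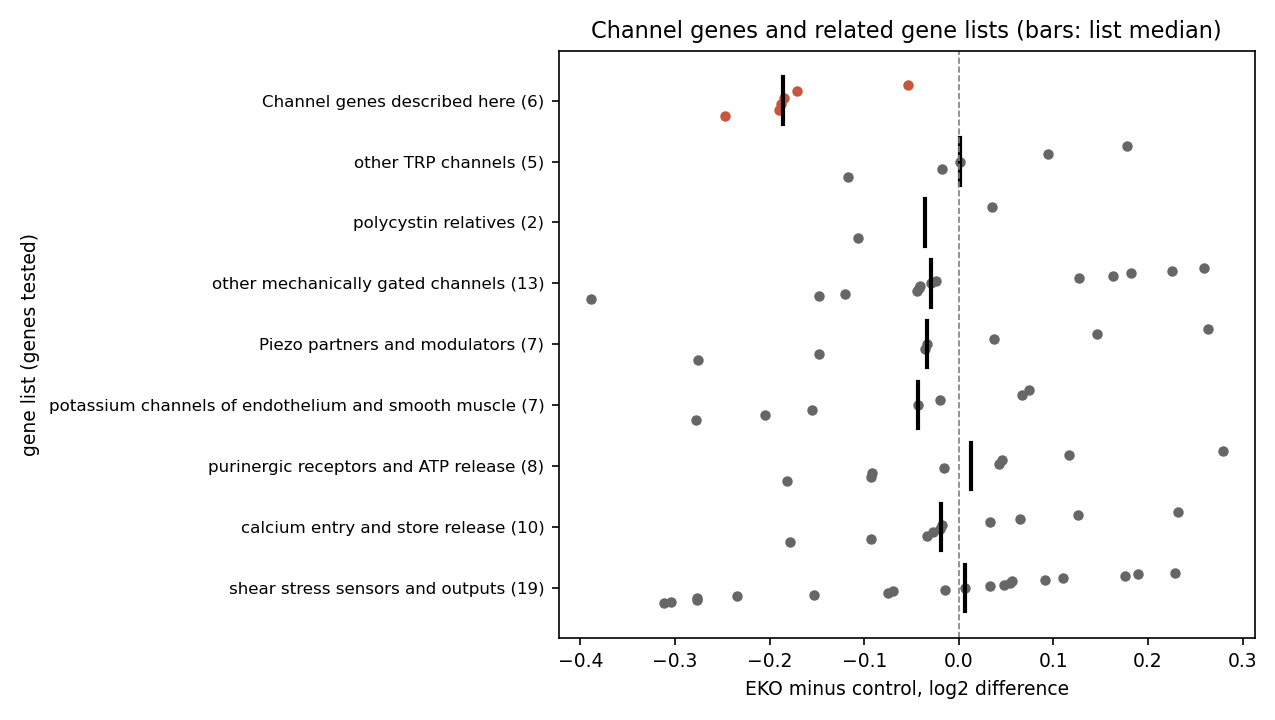
Log2 difference between EKO and control aortas for the tested channel genes (red) and for the tested genes of 8 related lists (grey), with a vertical bar at each list median and the number of genes tested in parentheses. The 6 channel genes lie between -0.25 and -0.05, and the medians of the other lists lie between -0.04 and 0.01.

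Other TRP channels were mostly below the level filter. Of 16 listed, 5 were tested, 3 of them higher and 2 lower, with a median of 0.0007. Trpv2, a stretch-sensitive relative of Trpv4, differed by 0.18 (SE 0.10), Trpm4, a cation channel opened by calcium, by -0.12 (SE 0.07) and Trpm3 by 0.09 (SE 0.14), with limma adjusted p-values of 0.618 to 0.832. All 8 Trpv2 values (6.23 to 6.77) lay below the negative control medians, and those of Trpm3 (7.23 to 7.82) lay around them. Of 9 polycystin relatives and cilium genes, 2 were tested. Kif3a, a motor subunit needed to build cilia, differed by -0.11 and the transport protein gene Ift88, at 7.22 to 7.55 near the negative control medians, by 0.03.

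Among 24 other mechanically gated or volume-regulated channels, 13 were tested, 5 higher and 8 lower, with a median of -0.03. Kcnk4, which encodes the stretch-activated potassium channel TRAAK, read 6.11, 6.36, 6.11 and 6.29 on control arrays 1 to 4 and 6.36, 6.60, 6.48 and 6.33 on EKO arrays 1 to 4. Its difference was 0.23 (SE 0.09, limma adjusted p = 0.550, 0.0385 before adjustment), and all 8 values lay below the negative control medians. Tmc7 differed by -0.39 (SE 0.20) and Lrrc8d, a subunit of volume-regulated anion channels, by -0.15 (SE 0.08), with adjusted p-values of 0.588 and 0.608.

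Of 10 genes grouped here as possible partners and modulators of PIEZO channels, 7 were tested, 3 higher and 4 lower. The grouping was by name, and a tie to PIEZO channels was not tested for any of them, Tmem178 included. Stom, which encodes the membrane scaffold protein stomatin, read 13.09, 12.72, 12.66 and 12.72 on control arrays 1 to 4 and 12.94, 13.09, 12.99 and 13.24 on EKO arrays 1 to 4. The EKO arrays lay above 3 of the 4 control arrays, and control array 1 lay among them. The difference was 0.26 (SE 0.11, limma adjusted p = 0.552). Nedd4l, a ubiquitin ligase that acts on several ion channels, read 9.11 to 9.21 in control and 8.61 to 9.12 in EKO aortas, a difference of -0.28 (SE 0.11, limma adjusted p = 0.549), and Tmem178 differed by 0.15, with all 8 values (6.41 to 6.85) below the negative control medians.

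Potassium channels of endothelium and smooth muscle gave 7 tested genes out of 20, 2 higher and 5 lower, with a median of -0.04. Kcnn4 and Kcnn3 encode the calcium-activated channels that open when calcium enters through Piezo1 and Trpv4. Kcnn4 differed by -0.28 (10.38 ± 0.23 against 10.11 ± 0.25, SD, n = 4 each) and Kcnn3 by -0.20 (12.16 ± 0.15 against 11.96 ± 0.27), with limma adjusted p-values of 0.610 and 0.651. The voltage-gated channel gene Kcna5 differed by -0.16 (SE 0.07, limma adjusted p = 0.571).

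Of 16 purinergic receptor and ATP release genes, 8 were tested, 4 in each direction. P2ry2, the receptor through which ATP and UTP act on endothelium, differed by 0.28 (SE 0.20), P2rx5 by -0.18 (SE 0.26) and Panx1, a channel that releases ATP, by 0.05 (SE 0.08). Their limma adjusted p-values were 0.667 to 0.855, and P2rx5 and Panx1 lay below the negative control medians by their group means. Of 19 genes of calcium entry and store release, 10 were tested, 4 higher and 6 lower. Stim2, a sensor of the calcium store, differed by 0.23, the G protein gene Gna11 by -0.18 and the store-operated channel gene Orai1 by 0.13, with adjusted p-values of 0.589 to 0.677.

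Shear stress sensors and their outputs gave 19 tested genes out of 21, 10 higher and 9 lower, with a median of 0.0065. Cav1, the caveolin that builds endothelial caveolae, read 14.33, 14.74, 14.35 and 14.37 on control arrays 1 to 4 and 14.24, 14.04, 14.32 and 14.24 on EKO arrays 1 to 4. All EKO arrays lay below all control arrays, and the difference was -0.24 (SE 0.11, limma adjusted p = 0.574). Sdc4, a heparan sulphate proteoglycan of the glycocalyx, lay near the negative control medians (7.46 to 7.74 in control and 7.29 to 7.51 in EKO aortas) and differed by -0.28 (SE 0.09, limma adjusted p = 0.511) and Plxnd1, a guidance receptor that also senses shear, by 0.23 (SE 0.12, limma adjusted p = 0.597). Itgb1, whose groups also did not overlap, read 13.619 to 13.679 in control and 13.518 to 13.618 in EKO aortas, so its groups nearly touched. Its difference was -0.07 (SE 0.06, limma adjusted p = 0.704).

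Over the 8 arrays the level of Piezo1 followed the adipocyte markers. Each tested channel gene was set against the means of 7 marker lists, 42 relations in all, of which 1 passed after adjustment by Pearson r and 0 by Spearman rho (7 and 3 at an unadjusted p under 0.05). The relation that passed joined Piezo1 and the mean of 10 adipocyte markers, with r = 0.926 (exact permutation p = 0.000322, adjusted 0.0135) and rho = 0.905 (exact permutation p = 0.00456, adjusted 0.192). Piezo1 was lowest (10.62) on EKO array 2, which also had the lowest adipocyte mean (7.92), and highest (11.05) on control array 3, which had the highest (10.66). Without these 2 arrays r was 0.870, and with the group means removed it was 0.923. Of all tested genes 2.36% had an r with the adipocyte mean at least as high, and 17.7% had an r beyond 0.7 in either direction. Adipoq and Ucp1 are among the 10 markers. The adipocyte mean was 9.63 in control and 9.12 in EKO arrays (two-sided exact permutation p = 0.514), and with it as a covariate the Piezo1 difference was 0.0079 (SE 0.07).

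**Figure D4:**
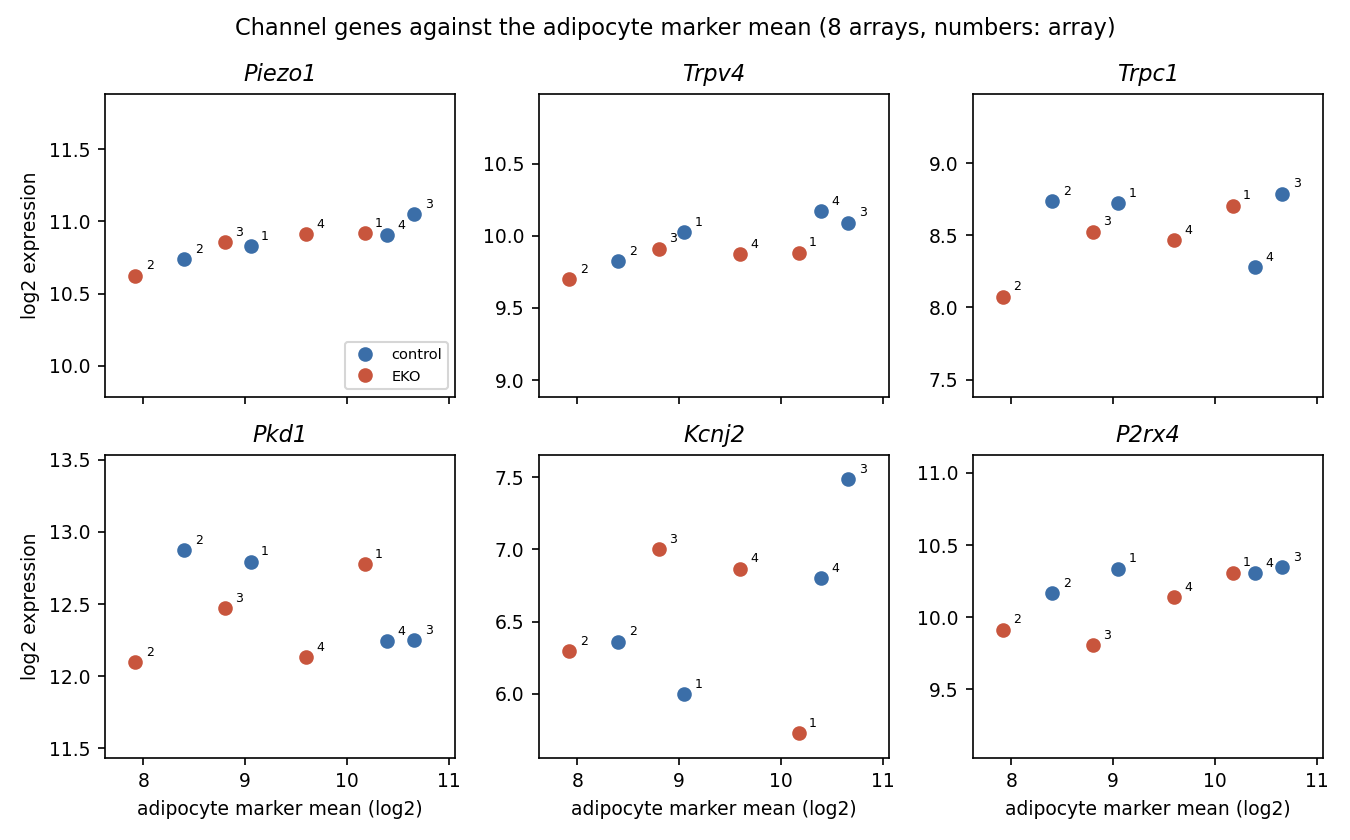
Log2 expression of the 6 tested channel genes against the mean log2 level of 10 adipocyte markers on the same array. Blue points are control and red points EKO arrays (numbered), and every panel spans the same height in log2 units. Piezo1 lies along a rising line from 10.62 to 11.05, and Pkd1 and Kcnj2 show no such line.

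The other channel genes followed that mean less closely or in no clear way. Trpv4 had r = 0.777 with it (exact permutation p = 0.0254, adjusted 0.200), P2rx4 0.702 (exact permutation p = 0.0560, adjusted 0.261), Trpc1 and Kcnj2 0.34 and Pkd1 -0.13. Trpv4 and Piezo1 also ran with the mean of 8 fibroblast markers (r = 0.821 and 0.757, exact permutation p = 0.0124 and 0.0285, both 0.200 after adjustment), as did P2rx4 (r = 0.717, exact permutation p = 0.0492, adjusted 0.261). Of all tested genes 19.4% had an r beyond 0.7 in either direction with the fibroblast mean. Without control arrays 3 and 4, the arrays farthest from the median of the fibroblast mean, r was 0.406 for Trpv4, 0.707 for Piezo1 and 0.726 for P2rx4. For the adipocyte mean, r without control array 3 and EKO array 2 was 0.549 for Trpv4 and 0.509 for P2rx4. Leaving out the farthest arrays narrows the range of a marker mean, so a lower r cannot show whether a relation rested on them. Pkd1 ran against the mean of 12 leukocyte markers (r = -0.724, exact permutation p = 0.0271, adjusted 0.200), which was lowest on control array 2 (6.73), where Pkd1 was highest. Without control arrays 2 and 4 this r was -0.595. With the endothelial and smooth muscle means none of the 6 genes reached an unadjusted p of 0.05. Whether the cell makeup of the flushed RNA accounts for these relations was not tested, and in such bulk RNA fewer cells of a type and less RNA per cell cannot be told apart.

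Among themselves the channel genes formed a loose pattern. Of 15 pairs, Piezo1 and Trpv4 had the highest r over the 8 arrays (0.737, rho 0.548), followed by Trpc1 and Pkd1 (0.691, rho 0.738) and Trpv4 and P2rx4 (0.632, rho 0.571). By rho the order was another, with Trpc1 and Pkd1 first and Trpc1 and P2rx4 next (r = 0.514, rho 0.643). Pkd1 and Kcnj2 ran opposite (r = -0.606, rho -0.310), but Kcnj2 read above the negative control median on only 1 array. With group means removed r was 0.799 for Piezo1 and Trpv4, 0.656 for Trpc1 and Pkd1, 0.368 for Trpv4 and P2rx4 and -0.696 for Pkd1 and Kcnj2. All pairs share the same arrays and RNA, so they describe these samples only.

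The genes most like each member over the 8 arrays were found among 11003 others with established symbols. For Piezo1 they were Cmtm4 (r = 0.993), Rbis (0.981) and Nup50 (0.973), and 126 genes had an r over 0.9. For P2rx4 they were Gorasp2 (0.993), Carm1 (0.985) and Ccm2 (0.975), with 68 genes over 0.9. Trpv4 was most like Paqr9 (0.977), Exosc3 (0.958) and Gga1 (0.957), with 34 over 0.9. Paqr9 itself averaged 8.07 in control and 7.31 in EKO aortas (difference -0.76) and, like every tested gene, did not pass the threshold. Trpc1 was most like Sec24b, Tlk2 and Phlpp2 (0.961, 0.960 and 0.958) and Pkd1 most like Car15, Phactr1 and Osbpl5 (0.956, 0.950 and 0.950), each with 25 genes over 0.9. Kcnj2, which read above the negative control median on only 1 array, was most like Zfp267 (0.944), Apol10a (0.926) and Nus1 (0.925), with 7 over 0.9. Apol10a averaged 6.19 in control and 6.12 in EKO aortas, also below the negative control medians. The names were picked as the highest of many correlations over 8 arrays and describe these samples only.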

How the data were processed

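RNA flushed from single thoracic aortas of 4 control and 4 EKO mice was measured on 8 Affymetrix Mouse Transcriptome Array 1.0 arrays, from 5 ng of total RNA each. Per the labels, the authors computed the deposited values, 1 log2 level per transcript cluster, by SST-RMA (Expression Console software). That method contains a quantile normalization step, which evens out overall signal between arrays. Its version and the genome build are not given in the sources used here.

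Probe sets with 1 symbol in the platform annotation (30604 of 72688) were named through the RefSeq table of GRCm38.p6, and the probe set with the highest mean stood for a gene with several. Genes whose mean over the 8 arrays exceeded 6.14 (the median over all probe sets) entered the fit with limma 3.58.1 under R 4.3.3 (functions lmFit and eBayes, no covariate, Benjamini-Hochberg adjustment over 16232 genes, threshold 0.05). Relations between arrays used exact permutation tests over 40320 orders, with adjustment over 42 relations. The exact permutation test of a difference uses 70 assignments and cannot go below 0.0286.

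The channel genes and lists were chosen with earlier results of these data known. Named are the members, Mef2c, up to 3 genes with the smallest p per related list, the 3 genes most like each member and a few defining markers. Kdr and Itgb1 were named outside that rule, after their values were seen. On simulated data for this comparison (16232 genes, 200 changed) the test recovered 86% of changes of 1 and 97% of changes of 2 on the log2 scale, and no smaller change was simulated. The simulated noise was normal and independent between genes, whereas many genes varied together on the real arrays. These rates therefore need not hold for the real comparison. Alternatives covered the level filter, probe set choice, scaling, variance model, array weights, covariates, the replicate number and each array left out.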

Additional observations from a re-analysis of the deposited data

Results flagged for a closer look

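In 7 of 76 groups of 4 arrays, taken over 38 genes and marker means, the highest or lowest array stood far from the other 3, with a gap above 0.829 of the whole range. Chance flags about 1 in 20 such groups. Among the channel genes this was Trpc1 on control array 4, at 8.28 against 8.72 to 8.79 on the other control arrays. Without that array the Trpc1 difference was -0.31 (limma adjusted p = 0.751). On control array 1 the smooth muscle marker mean was lowest (7.52 against 7.84 to 7.86), Kif3a lowest (8.08 against 8.29 to 8.32) and Stom highest (13.1 against 12.7). Cav1 was highest on control array 2 (14.7 against 14.3 to 14.4). Among EKO arrays, Trpv2 was highest on array 2 (6.77 against 6.39 to 6.44) and Sdc4 on array 3 (7.51 against 7.29 to 7.31).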

How the results depend on the processing

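No channel gene passed the threshold under any of the alternatives run, with limma adjusted p-values of 0.294 to 0.996, and the count of genes past the threshold stayed at 0 in each. The settings that can move a difference were the left-out arrays, quantile normalization, centring, array weights and the marker covariates, and P2rx4, Trpv4, Trpc1 and Pkd1 kept their sign under each of these. The level filters, the probe set rule and the other tests leave the difference as it is and can move its error or p alone. P2rx4 ranged from -0.34 to -0.17, Trpv4 from -0.25 to -0.13, Trpc1 from -0.31 to -0.06 and Pkd1 from -0.31 to -0.06. With single arrays left out Piezo1 ranged from -0.10 to 0.0144 and Kcnj2 from -0.41 to 0.0855, and with the adipocyte mean as a covariate Piezo1 stood at 0.0079. The cause of these turns was not tested. Quantile normalization and centring kept all 6 lower, with Piezo1 nearest to 0 at -0.02 in both. Kcnj2 fell out under the stricter level filter. Over all tested genes the replicate numbers did not pair the arrays: same-numbered arrays deviated together with r = -0.16, 0.21, -0.24 and 0.13, and 0 of 8 arrays correlated best with their own number. With the replicate number as a block 0 genes passed. The block is balanced, so it leaves the differences as they are (P2rx4 -0.25, Trpv4 -0.18, Piezo1 -0.05) and can move their errors alone. For Kcnj2 the SE went from 0.37 to 0.11 and the unadjusted limma p from 0.619 to 0.143 (adjusted 0.681). The Kcnj2 values rose in the same order of array numbers in both groups (1, 2, 4, 3), which the block takes up. The labels name 1 aorta per array, so p-values measure the spread between arrays of different mice. Within that spread the mouse, the flush and the array measurement cannot be told apart. The width of the intervals, widest for Kcnj2 among the 6 (ratios of 0.49 to 1.57), and signals near the negative controls limit what 4 arrays a group can show.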

Other observations

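Markers of nerve and Schwann cells, of interest because PIEZO2 is known from sensory neurons, were mostly under the level filter. Of 12 listed genes 2 were tested, S100b and Ncam1, and neither is confined to nerve. Their mean lay between 10.05 and 10.27 on control arrays and between 9.18 and 9.92 on EKO arrays, so the groups did not overlap (two-sided exact permutation p = 0.0286, the smallest that 70 assignments allow, for 1 of 7 marker lists looked at). S100b differed by -0.55 and Ncam1 by -0.39, with limma adjusted p-values of 0.567 and 0.574. Trpc1 followed this mean over the 8 arrays (r = 0.793, rho = 0.810, exact permutation p = 0.0182 and 0.0218, adjusted over 42 relations 0.200 and 0.367). Without control array 2 and EKO array 2, the arrays farthest from the median of this mean, r was 0.356. Leaving them out also narrows the range of the mean, so this cannot show whether the relation rested on them. The lymphatic transcription factor gene Prox1 lay between 4.82 and 5.09 on all 8 arrays, under the level filter.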
